A study of Mus musculus with 12 samples.

Results

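The interferon-stimulated genes Ifit1, Ifit2, Ifit3, Isg15, Irf7, Usp18, Oasl1, Rsad2 and Ifi44 were followed in mouse liver on 12 one-colour Agilent arrays. Every probe whose RefSeq accession belongs to 1 of these 9 gene symbols was taken, which gave 10 of the 39429 probes (27508 of them carry a gene symbol). Isg15 had 2 probes and the other genes 1 each, and all 10 probes were well above background on all 12 arrays. The mice were female C57BL/6N, and 3 of each group were killed after 6 months on a normal formula diet (NFD) of low fat content. The Ctrl group ate this diet with corn starch and sucrose as its carbohydrate. The RS group ate the Ctrl diet with added resveratrol, a plant stilbenoid. In the DJ diet Dongjin rice took the place of starch and sucrose, and in the DJ526 diet the place was taken by DJ526, a Dongjin line that carries a peanut stilbene synthase gene and makes resveratrol in the grain. DJ526 and DJ therefore differ in the transferred gene as well as in resveratrol, and DJ526 and Ctrl also differ in the carbohydrate. The mice were housed together in cages, which the paper states were assigned to the groups at random. The paper also states that the mice were divided into the groups at random after acclimation.

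Type I interferons are secreted proteins that cells release on sensing foreign nucleic acid. They bind a receptor of 2 chains, Ifnar1 and Ifnar2, whose kinases Jak1 and Tyk2 pass the signal on. A complex that holds Stat2 and Irf9 then binds an interferon-stimulated response element in the promoter of its target genes. The genes described here are well-known targets of this complex. Ifit1, Ifit2 and Ifit3 encode tetratricopeptide-repeat proteins that bind viral RNA or its translation partners, Rsad2 encodes viperin, which makes a chain-terminating nucleotide, and Isg15 is a ubiquitin-like modifier. Usp18 removes Isg15 from proteins and dampens the receptor, Irf7 is the transcription factor that raises interferon alpha genes, Oasl1 inhibits the translation of Irf7, and Ifi44 is an interferon-induced protein of less settled function. In liver, hepatocytes, Kupffer cells and endothelial cells all respond to interferon, so that in whole tissue a change in the cells present and a change of RNA per cell cannot be told apart.

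Because the levels of these genes were correlated over the arrays, their promoters were searched for the core of the response element, spelled GAAANNGAAA on one strand and TTTCNNTTTC on the other, with overlapping matches counted. RefSeq windows of GRCm38.p6, from 250 bases before to 50 bases after a transcript start, were used. Of all 32851 windows, 3.44% held the core, and so did 3.99% of 27025 genes. Of the 8 members with a window, 4 held it (Ifit1, Ifit3, Isg15 and Rsad2), while Ifit2, Irf7, Oasl1 and Ifi44 did not hold these letters. Usp18 had no window. The 4 windows with the core are shown to let the motifs be compared, and 1 of the Ifit2 windows is shown beside them because Ifit2 varied least with the others. Capitals mark the core.
Ifit1, chr19:34640639-34640938, + strand: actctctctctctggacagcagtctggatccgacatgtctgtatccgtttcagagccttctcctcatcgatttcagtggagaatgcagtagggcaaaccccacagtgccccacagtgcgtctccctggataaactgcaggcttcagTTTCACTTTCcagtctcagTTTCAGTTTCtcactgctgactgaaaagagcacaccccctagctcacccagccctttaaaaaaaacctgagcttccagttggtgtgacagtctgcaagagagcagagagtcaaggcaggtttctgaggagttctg
Ifit3, chr19:34583279-34583578, + strand: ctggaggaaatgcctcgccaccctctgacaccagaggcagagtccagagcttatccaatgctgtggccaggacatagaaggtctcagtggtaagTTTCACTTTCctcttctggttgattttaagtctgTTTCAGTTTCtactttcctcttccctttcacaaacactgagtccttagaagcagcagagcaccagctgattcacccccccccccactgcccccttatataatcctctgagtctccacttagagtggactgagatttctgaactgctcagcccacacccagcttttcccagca
Isg15, chr4:156200769-156201068, - strand: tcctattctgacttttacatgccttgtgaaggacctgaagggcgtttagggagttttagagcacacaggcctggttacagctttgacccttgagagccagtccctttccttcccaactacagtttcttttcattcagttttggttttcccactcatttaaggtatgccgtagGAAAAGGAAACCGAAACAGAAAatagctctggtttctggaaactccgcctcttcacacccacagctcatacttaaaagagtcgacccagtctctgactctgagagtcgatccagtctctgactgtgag
Rsad2, chr12:26456403-26456702, - strand: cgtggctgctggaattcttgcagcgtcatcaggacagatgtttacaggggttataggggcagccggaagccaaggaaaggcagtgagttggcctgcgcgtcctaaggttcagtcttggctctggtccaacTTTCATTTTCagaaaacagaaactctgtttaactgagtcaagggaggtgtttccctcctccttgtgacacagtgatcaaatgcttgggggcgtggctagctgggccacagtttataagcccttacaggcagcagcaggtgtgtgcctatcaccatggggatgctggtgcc
Ifit2, chr19:34550444-34550743, + strand: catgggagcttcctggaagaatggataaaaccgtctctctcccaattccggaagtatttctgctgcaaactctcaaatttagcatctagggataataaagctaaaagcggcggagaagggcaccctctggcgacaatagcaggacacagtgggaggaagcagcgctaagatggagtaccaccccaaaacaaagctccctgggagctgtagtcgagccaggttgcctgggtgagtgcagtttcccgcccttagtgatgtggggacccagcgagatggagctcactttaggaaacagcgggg
In Ifit1 the matches began 104 and 85 bases before the start, and in Ifit3 156 and 122 bases before it. The 2 matched words were the same in both genes and in the same order. Isg15 held 3 overlapping matches, beginning 78, 72 and 66 bases before the start, and Rsad2 held 1 at 120. Ifit2, Ifit3 and Ifit1 lie close together on chromosome 19 (34550550 to 34576534, 34583119 to 34588982 and 34640889 to 34650009), and the other members lie on chromosomes 3, 4, 5, 6, 7 and 12. A match describes these letters and does not show binding.

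The 12 arrays were hybridised on 3 slides, and the slides did not hold the diets evenly. Slide 1 held Ctrl 1, 2 and 3 and DJ 1. Slide 2 held RS 1 and 2 and DJ 2 and 3, and slide 3 held RS 3 and DJ526 1, 2 and 3. Ctrl never shared a slide with RS or DJ526, and DJ never shared one with DJ526. Between 73.0% and 80.8% of the spots on each array exceeded background clearly, no spot was saturated, and the 10 hepatocyte markers checked (such as Alb and Apoa1) were well above background on all 12 arrays. Levels below are log2 signals relative to the 75th percentile of the same array. A level of 1 is thus 2 times that percentile, and levels of different probes are not compared.

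No diet gave a level of these genes that was called different from another. The spread within RS and DJ, the groups split over slides, was wide. In Rsad2 the 3 RS mice alone held both the highest and the lowest level of all 12. Over the 12 arrays the spread from the lowest to the highest array was 1.68-fold for Ifit2, 2.02-fold for Ifit3, 2.10-fold for Irf7 and between 2.29-fold and 2.60-fold for the other 6 genes. RS 1 was the highest array for Ifit1, Ifit3 and Rsad2, and DJ 3 was the highest for Isg15, Usp18 and Ifi44. Ctrl 3 was the highest for Ifit2 and Irf7, and Ctrl 2 for Oasl1. A DJ526 array was the lowest for 6 genes (Ifit1, Isg15, Irf7, Usp18, Oasl1 and Ifi44). DJ 1 was the lowest for Ifit2 and Ifit3, and RS 3 for Rsad2.

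**Figure D1:**
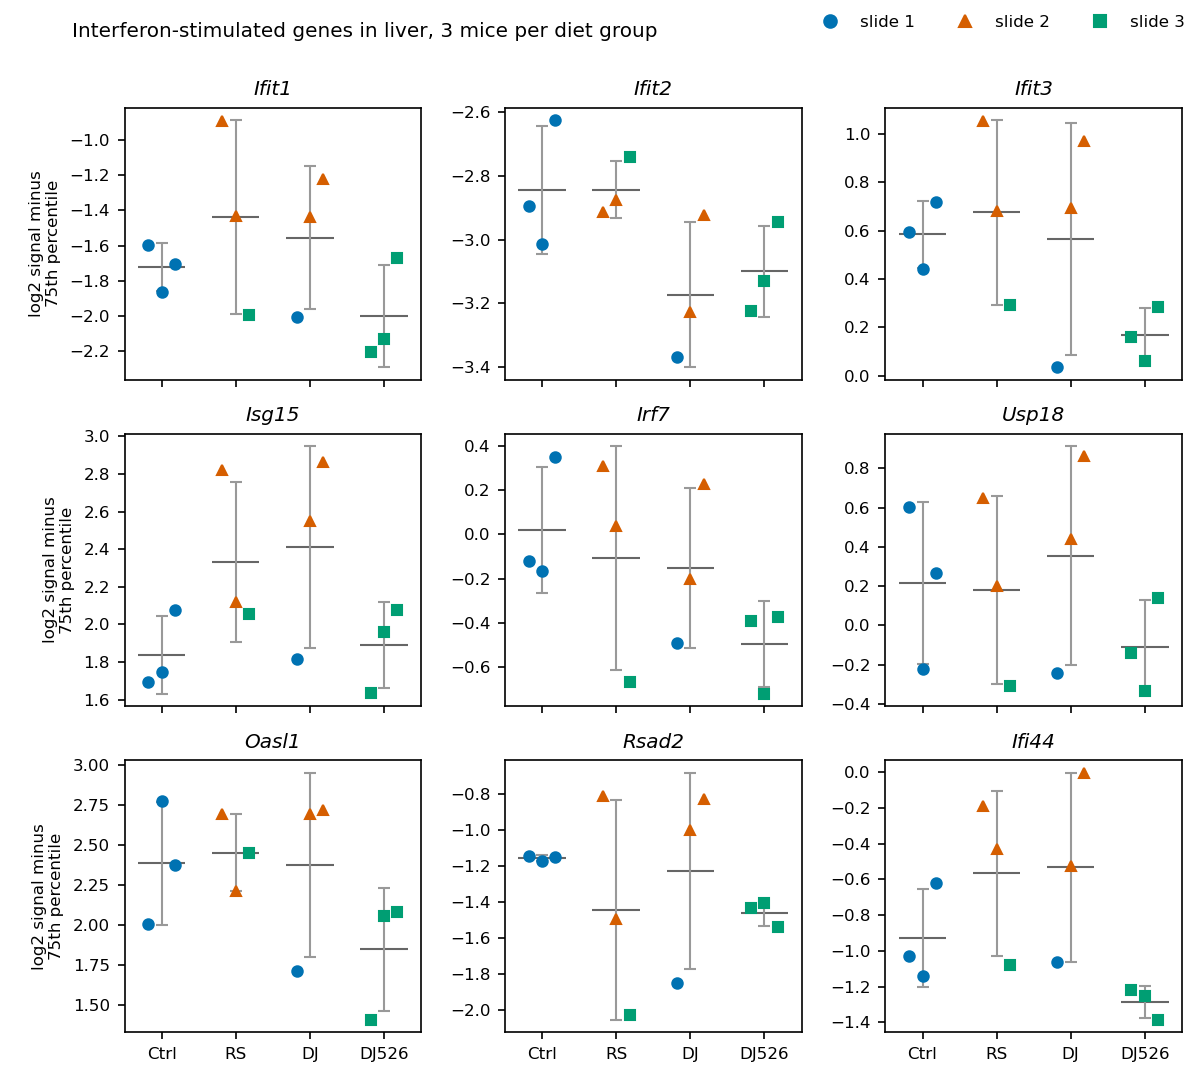
Level of each of the 9 genes on the 12 arrays (vertical axis, log2 signal relative to the array's 75th percentile, with its own range for each gene) by diet group (horizontal axis). Points are single mice, coloured and shaped by slide, bars are the mean and SD of 3 mice, and the slide 2 points of RS and DJ lie above the slide 1 or 3 point of the same group in 7 of 9 genes for RS and in 9 of 9 for DJ.

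Among the effectors that bind viral RNA, Ifit1 stood at -1.59, -1.86 and -1.70 in Ctrl 1, 2 and 3, at -0.89, -1.43 and -1.99 in RS, at -2.00, -1.43 and -1.22 in DJ and at -2.20, -2.13 and -1.67 in DJ526. The group means were -1.72 ± 0.14 for Ctrl, -1.44 ± 0.55 for RS, -1.55 ± 0.40 for DJ and -2.00 ± 0.29 for DJ526 (SD, n = 3). The RS and DJ groups each held 1 mouse as low as some of DJ526, and all 4 groups overlapped. Ifit3 stood at 0.59, 0.44 and 0.72 in Ctrl, at 1.05, 0.68 and 0.29 under RS, at 0.04, 0.69 and 0.97 under DJ and at 0.16, 0.06 and 0.28 under DJ526. All 3 DJ526 mice lay below all 3 Ctrl and all 3 RS mice, the latter narrowly (0.28 against 0.29), while DJ 1 was lower still. The levels of Ifit2 were -2.89, -3.01 and -2.62 in Ctrl, -2.91, -2.88 and -2.74 under RS, -3.37, -3.23 and -2.92 under DJ and -3.22, -3.13 and -2.94 under DJ526, with means of -2.84 ± 0.20 for Ctrl, -2.84 ± 0.090 for RS, -3.17 ± 0.23 for DJ and -3.10 ± 0.14 for DJ526 (SD, n = 3). The mice of both rice groups lay below all RS mice in Ifit2, the DJ mice narrowly (-2.92 against -2.91), and overlapped with Ctrl.

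Rsad2, which encodes viperin, was nearly constant in Ctrl (-1.14, -1.18 and -1.15) and widely spread in RS (-0.81, -1.50 and -2.03) and DJ (-1.85, -1.00 and -0.83). In DJ526 it was again tight, at -1.44, -1.40 and -1.54, below every Ctrl mouse. The SD was 0.017 in Ctrl and 0.071 in DJ526 against 0.61 in RS and 0.54 in DJ. All Ctrl mice shared a slide, as did all DJ526 mice, whereas RS and DJ were each split over slides. In Rsad2 the mean of the slide 2 mice was above the remaining mouse by 0.87 in RS and 0.93 in DJ. Ifi44 stood at -1.03, -1.14 and -0.62 in Ctrl, at -0.19, -0.43 and -1.08 under RS, at -1.06, -0.53 and -0.01 under DJ and at -1.22, -1.25 and -1.39 under DJ526. The 3 DJ526 mice had the 3 lowest levels of Ifi44 of all 12, and the means were -0.93 ± 0.27 for Ctrl, -0.57 ± 0.46 for RS, -0.53 ± 0.53 for DJ and -1.29 ± 0.088 for DJ526 (SD, n = 3).

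Isg15 and the enzyme that removes it, Usp18, were highest in the mean in DJ. The brighter Isg15 probe stood at 1.70, 1.74 and 2.08 in Ctrl, at 2.82, 2.12 and 2.05 under RS, at 1.82, 2.55 and 2.86 under DJ and at 1.64, 1.96 and 2.08 under DJ526. The dimmer Isg15 probe ranked the arrays in nearly the same order (Pearson's r = 0.986 and Spearman's rho = 0.972 over 12 arrays, permutation p = 1e-05 for each, the smallest that 100000 permutations can give). In Isg15 the arrays RS 1, DJ 2 and DJ 3 stood clear of the rest, whereas Ctrl and DJ526 covered nearly the same range. Usp18 stood at 0.60, -0.22 and 0.27 in Ctrl, at 0.65, 0.20 and -0.31 under RS, at -0.24, 0.44 and 0.86 under DJ and at -0.14, -0.33 and 0.14 under DJ526, and all 4 groups overlapped.

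The regulators Irf7 and Oasl1 were lowest in the mean in DJ526. Irf7 stood at -0.12, -0.17 and 0.35 in Ctrl, at 0.31, 0.04 and -0.67 under RS, at -0.49, -0.20 and 0.23 under DJ and at -0.39, -0.72 and -0.37 under DJ526. Oasl1 stood at 2.01, 2.78 and 2.37 in Ctrl, at 2.69, 2.21 and 2.45 under RS, at 1.71, 2.69 and 2.72 under DJ and at 1.41, 2.06 and 2.08 under DJ526. In Irf7 all 3 DJ526 mice were below all Ctrl mice, and in Oasl1 they were below all RS mice. The group order of the 9 genes was not shared: DJ526 had the lowest mean in 7 genes, but Ctrl had it in Isg15 and DJ in Ifit2, and the highest mean was in RS for Ifit1, Ifit2, Ifit3 and Oasl1, in DJ for Isg15, Usp18 and Ifi44, and in Ctrl for Irf7 and Rsad2. No 2 neighbours in any of these orders differed in the tests given next.

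Each diet was then compared with each of the other diets, in 1 limma fit over all probes. No member probe was called at an adjusted p under 0.05 in any comparison (limma, Benjamini-Hochberg adjustment over 39429 probes). Over all probes, 0% were called in RS against Ctrl, in DJ against Ctrl and in DJ against RS, 0.00507% in DJ526 against Ctrl, 0.0101% in DJ526 against DJ and 0.00761% in DJ526 against RS. The lowest adjusted p of a member was 0.882 in RS against Ctrl, 0.951 in DJ against Ctrl, 0.494 in DJ526 against Ctrl, 0.436 in DJ526 against DJ and 0.777 in DJ526 against RS. At an unadjusted p under 0.05, 0 of the 10 probes passed in RS against Ctrl (6% of all probes), in DJ against Ctrl (5.25%), in DJ526 against Ctrl (10.8%) and in DJ against RS (3.53%). In DJ526 against DJ 1 passed (9.84% of all), and in DJ526 against RS 2 passed (5.51%). A test of any difference among the 4 groups passed 0 members, with 7.74% of all probes at an unadjusted p under 0.05 and 0.00507% called. The unpaired test of the study's methods, run on the same values, left 0 members after adjustment in every comparison. Before adjustment it passed Ifit3 and Rsad2 in DJ526 against Ctrl, where 12.9% of all probes passed, and no member in the other comparisons.

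The median difference over the 9 genes was 0.07 on the log2 scale in RS against Ctrl (6 higher, 3 lower) and -0.01 in DJ against Ctrl (4 higher, 5 lower). The DJ526 comparisons gave negative medians. It was -0.33 against Ctrl (8 of 9 genes lower), -0.45 against DJ (8 lower) and -0.44 against RS (9 lower), where the median over 15568 genes well above background was between -0.00 and 0.01 in each of these comparisons. These 3 comparisons share the DJ526 mice and the genes vary together, so that the counts of genes are a description. Over all probes, 55.4% were higher in RS than in Ctrl, 53.9% lower in DJ than in Ctrl, and 47.2%, 43.8% and 49.8% lower in DJ526 than in Ctrl, DJ and RS. Against Ctrl, the DJ526 ranges lay wholly below for 4 of the 10 probes (Ifit3, Irf7, Rsad2 and Ifi44), where 8.34% of all probes did so. Against RS they did so for 4 probes (Ifit2, Ifit3, Oasl1 and Ifi44, 5.93% of all), and against DJ for Ifi44 alone (6.28% of all). The DJ range lay wholly below that of RS for 1 of the 10 probes (Ifit2), where 3.93% of all probes did so.

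Ifi44 had the largest differences in DJ526. It was lower than in DJ by a log2 difference of -0.75 (SE 0.27, unadjusted p = 0.018, limma adjusted p = 0.436) and lower than in RS by -0.72 (SE 0.27, unadjusted p = 0.023, limma adjusted p = 0.777). Against Ctrl the difference of Ifi44 was -0.36 (SE 0.27). The largest differences from Ctrl in DJ526 were those of Oasl1 (-0.54, SE 0.29), Irf7 (-0.52, SE 0.26) and Ifit3 (-0.42, SE 0.23), and none passed. In DJ the brighter Isg15 probe was 0.57 above Ctrl (SE 0.27) and in RS it was 0.49 above (SE 0.27), with DJ526 at 0.05. The difference of Ifit2 from Ctrl was -0.33 (SE 0.15) in DJ, -0.26 (SE 0.15) in DJ526 and 0.00 (SE 0.15) in RS.

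Whether resveratrol went with a different change on rice than on starch and sucrose was asked by subtracting RS minus Ctrl from DJ526 minus DJ. No member was called (0% of all probes were), and 3 of the 10 probes had an unadjusted p under 0.05, all negative, against 6.14% of all probes (3.22% negative). These were Ifi44 at -1.12 (SE 0.38, unadjusted p = 0.014, limma adjusted p = 0.704) and both Isg15 probes, at -1.01 (SE 0.38, unadjusted p = 0.021) and -1.02 (SE 0.45, unadjusted p = 0.046). The median over the 9 genes was -0.49, with 7 of 9 negative, where 48.5% of all probes were negative.

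**Figure D2:**
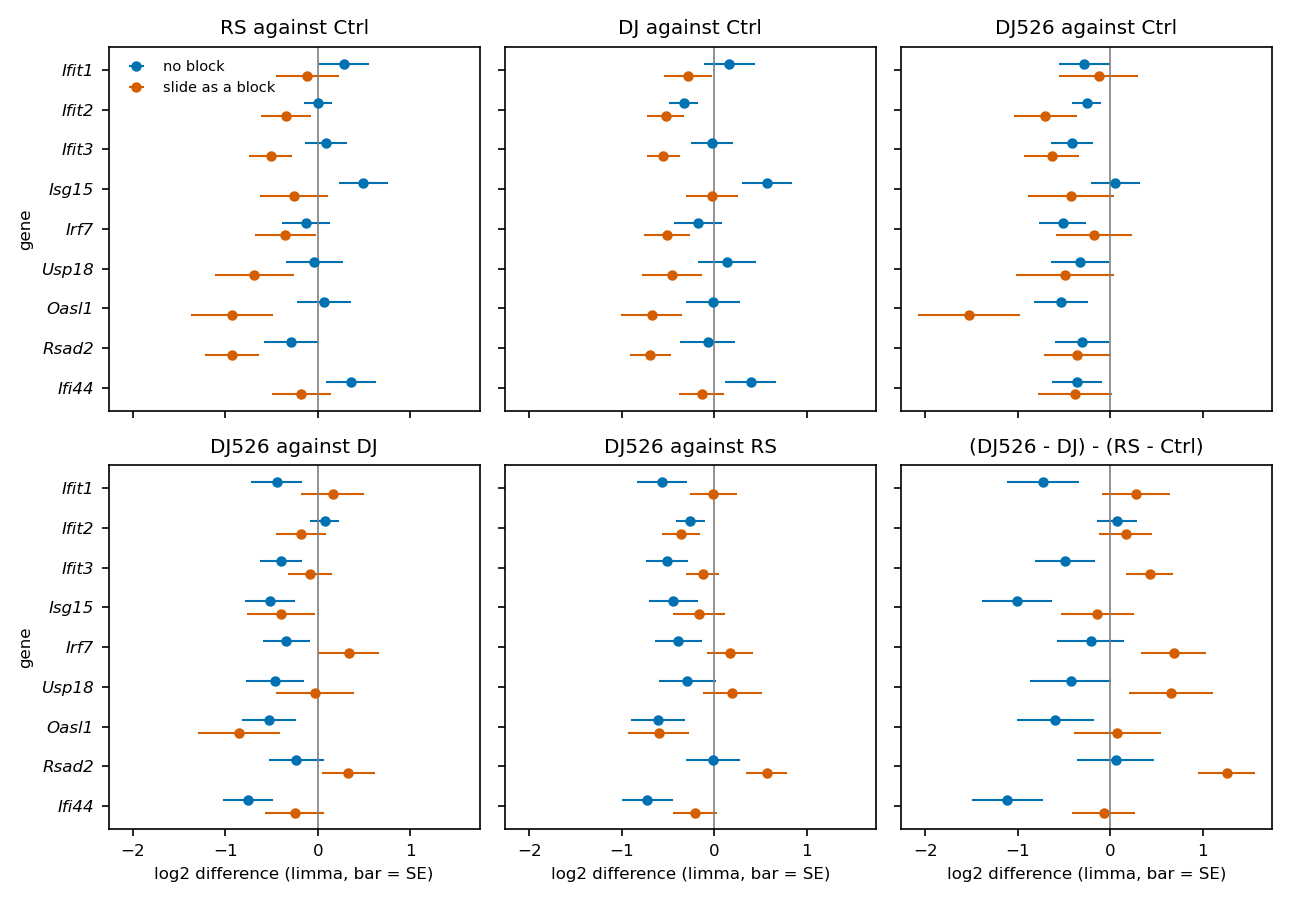
Log2 difference with its SE (limma, horizontal axis) of each of the 9 genes (vertical axis) in 5 comparisons of diets and in the contrast of resveratrol on rice with resveratrol on starch. Blue points come from the fit with group means alone and orange points from the fit with slide as a block, and with the block the DJ against Ctrl differences move from a median of -0.01 to -0.51 and the contrast of resveratrol effects from -0.49 to 0.28.

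These differences changed when slide entered the fit. With slide as a block, all 9 genes were lower in RS (median -0.35), DJ (median -0.51) and DJ526 (median -0.42) than in Ctrl, and the median difference of DJ526 from DJ shrank to -0.09 and that from RS to -0.12. The contrast of resveratrol on rice with resveratrol on starch turned to a median of 0.28, with 7 of 9 genes above 0. No member was called with the block either, where the share of all probes called was 0.00254% for RS, 0.0203% for DJ and 0% for DJ526 against Ctrl, 0.0101% for DJ526 against DJ, 0.101% for DJ526 against RS, 0% for DJ against RS, 0.0431% for the contrast of resveratrol effects and 0.0279% for any difference among the 4 groups. At an unadjusted p under 0.05 the block gave Rsad2 in RS against Ctrl (-0.93, where 10.3% of all probes passed), Rsad2 (-0.69), Ifit3 (-0.55) and Ifit2 (-0.52) in DJ against Ctrl (9.82%), and Oasl1 in DJ526 against Ctrl (-1.53, 11.8%). It gave Rsad2 as higher in DJ526 than in RS (0.57, 8.06%) and in the test of any difference (8.71%), and no member in DJ526 against DJ (7.59%) or DJ against RS (4.89%). In the contrast of resveratrol effects the block gave Rsad2 alone (1.26, SE 0.31, unadjusted p = 0.0029, limma adjusted p = 0.388, 6.6% of all probes), and Ifi44 moved from -1.12 to -0.07 there. The block also moved Ifi44 in DJ526 from -0.75 to -0.25 against DJ and from -0.72 to -0.21 against RS. The blocked values rest on the few pairs of diets that share a slide. On slide 1, DJ 1 was below the Ctrl mean in all 9 genes, by -0.02 in Isg15 to -0.69 in Rsad2. On slide 2 the mean of DJ 2 and 3 was above that of RS 1 and 2 in 5 genes and below it in 4, with differences from -0.18 (Ifit2) to 0.25 (Oasl1). On slide 3 the mean of the DJ526 mice differed from RS 3 by -0.60 in Oasl1 to 0.57 in Rsad2, with 6 genes lower and 3 higher. Each of the single mice DJ 1 and RS 3 stands there for its whole group. A difference between slides and a difference between these mice therefore cannot be told apart.

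The split by slide was seen after the levels were plotted, and it was then measured for all probes. Within RS, the 2 mice on slide 2 were both above RS 3 for 8 of the 10 member probes (24.1% of all probes), and within DJ the 2 mice on slide 2 were both above DJ 1 for 10 of 10 (35.2%). Both splits held for 8 of 10 probes and for 8.61% of all. For 4 of the 10 probes, Ifit1, Ifi44 and both of Isg15, all 4 arrays of slide 2 lay above all 8 others, which was true of 0.465% of all probes. The 4 arrays lay below all others for no member and for 1.2% of all probes. In a limma fit with group and slide, the slide term had an unadjusted p under 0.05 for 8 of 10 member probes and for 16.5% of all, and after adjustment it passed no member and 0.0685% of all. The mean of slide 2 was above that of slides 1 and 3 by 0.81 in Ifi44, 0.71 in Isg15, 0.65 in Ifit1, 0.57 in Usp18, 0.53 in Ifit3, 0.47 in Oasl1, 0.43 in Rsad2 and 0.42 in Irf7, but by 0.01 in Ifit2. That slide held RS and DJ mice and no Ctrl or DJ526 mouse.

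**Figure D3:**
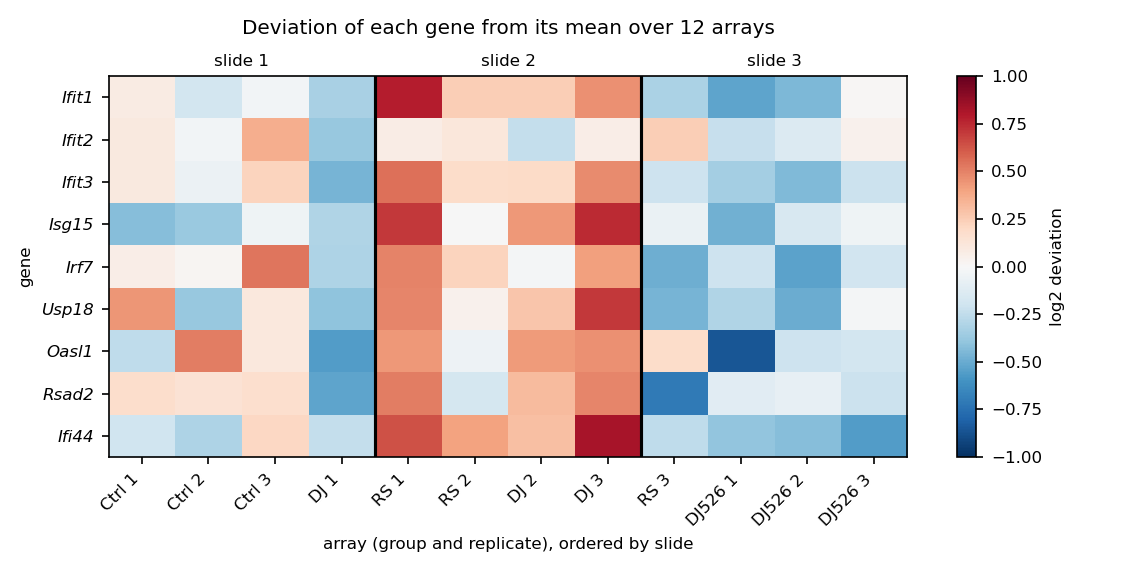
Deviation of each gene (rows) from its own mean over 12 arrays, in log2 units (colour, red above and blue below), for the 12 arrays (columns) ordered by slide. The columns RS 1 and DJ 3 are red in all 9 genes, and DJ 1, DJ526 1 and DJ526 2 are blue in all 9.

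Array by array, the members rose and fell as a group. In RS 1 and DJ 3 all 9 genes were above their own mean over the 12 arrays, by a mean of 0.52 and 0.51 log2 units. In DJ 1, DJ526 1 and DJ526 2 none of the 9 was above it, with mean deviations of -0.39, -0.38 and -0.33. The remaining arrays lay between. DJ 2 had a mean deviation of 0.22, Ctrl 3 of 0.18, RS 2 of 0.11, Ctrl 1 of 0.01, Ctrl 2 of -0.07, DJ526 3 of -0.15 and RS 3 of -0.23. Thus the highest and the lowest mouse of all 12 were an RS mouse and a DJ mouse, and DJ alone covered nearly the whole span.

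All 36 pairs of the 9 genes had a positive Pearson's r over the 12 arrays, with a median of 0.697 and a range from 0.118 to 0.922. After Benjamini-Hochberg adjustment over the 36 pairs, 22 had an adjusted permutation p under 0.05 by Pearson's r and 17 by Spearman's rho. The genes were chosen with this covariation known, and these p-values are not independent evidence for it. Ifit1 and Ifit3, both on chromosome 19, were the closest pair (r = 0.92, permutation p = 3e-05, adjusted p = 0.00108, rho = 0.86, permutation p = 0.00069). They were followed by Ifit3 with Irf7 (r = 0.90, rho = 0.88), Ifit3 with Ifi44 (r = 0.89, rho = 0.83), Ifit3 with Usp18 (r = 0.88, rho = 0.85) and Ifit1 with Usp18 (r = 0.87, rho = 0.85). For these 5 pairs r stayed between 0.85 and 0.91 when the 2 arrays on which the first gene of the pair lay farthest from its own median were left out, a choice that differs from pair to pair.

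Ifit2 stood apart from the other members in these correlations. Its probe was also the dimmest of the member probes, with signals on the linear scale of 87 to 169 over the arrays. The lowest signal of any other member probe was 224.9 (Ifit1). Whether the low signal of Ifit2 lowered its correlations was not tested. None of its 8 pairs passed, with a median r of 0.310 and a highest r of 0.49 (with Ifit3), whereas 22 of the 28 pairs without it passed, with a median r of 0.767. Of those 28, the 6 that did not pass involved Oasl1 (with Irf7, Usp18, Rsad2 and Ifi44) or Isg15 (with Irf7 and Rsad2). Ifit1 and Ifit3 passed with all 7 other genes, Usp18 and Ifi44 with 6, Isg15, Irf7 and Rsad2 with 5 and Oasl1 with 3. In these pairs the genes with the promoter core had a median r of 0.82 (Ifit1), 0.88 (Ifit3), 0.69 (Isg15) and 0.70 (Rsad2). Those without it had 0.78 (Irf7), 0.79 (Ifi44) and 0.59 (Oasl1). A link between the core and the covariation was not tested. With group means removed the median r was 0.777, and 6 pairs passed when arrays were exchanged only within groups, which allows 1296 arrangements.

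With slide means removed the median r over all pairs fell to 0.536 and all 36 stayed positive, while 0 pairs passed after adjustment and 6 had an unadjusted p under 0.05. Ifit2 then gave r = 0.81 with Ifit3 and 0.66 with Irf7. Over the 8 arrays of slides 1 and 3 alone the median was 0.486, with 0 pairs after adjustment and 6 before it (exact permutation test), and Isg15 with Rsad2 gave -0.31 there. Leaving out RS 1 and DJ 3 from every pair, as the 2 arrays farthest from the median of the mean level of the 9 genes, gave a median of 0.518, and all 36 pairs stayed positive. Of these, 0 passed after adjustment over the 36 pairs (lowest adjusted permutation p = 0.0564, highest r = 0.85) and 10 had an unadjusted p under 0.05. These settings also leave fewer arrays or fewer possible arrangements than the 12 arrays gave.

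**Figure D4:**
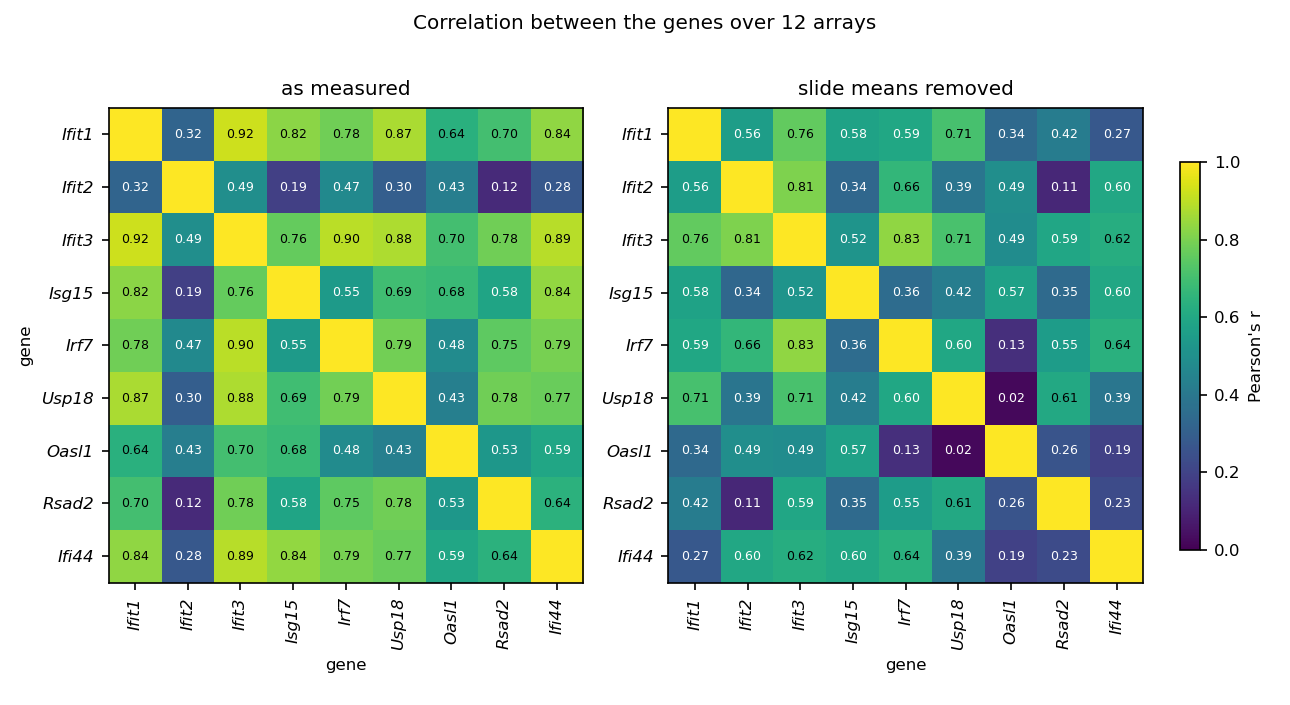
Pearson's r between each pair of the 9 genes (both axes) over 12 arrays, on the left as measured and on the right with slide means removed, coloured from 0 to 1. On the left the Ifit2 row is the darkest, from 0.12 to 0.49, against a highest value of 0.92 for Ifit1 with Ifit3, and on the right the values run from 0.02 to 0.83.

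To find the genes whose pattern was most like that of the members, the 9 genes were scaled to equal variance and averaged, and all 15568 other genes with an accession and a detected signal on each array were ranked by Pearson's r with this mean over the 12 arrays. The median r was -0.034, and 1.32% of the genes had r above 0.8 and 0.829% below -0.8. The closest was Ifit3b (r = 0.95), a near copy of Ifit3 beside it on chromosome 19 (34607530 to 34613403), and the probes of such copies may share signal. Its promoter window held the same 2 core words as that of Ifit3. Next were Rbck1 (0.94), a subunit of the linear ubiquitin ligase, Dtx3l (0.92), a ubiquitin ligase that is itself interferon-induced, and Oas1c (0.92), of the oligoadenylate synthetase family. The others were Eif2d, a translation initiation factor, Tmem9b, a lysosomal membrane protein, Sh3glb2, the mitochondrial ribosomal protein Mrps15, the mitochondrial RNA factor Ptcd2 and Hdhd2, each with r = 0.91. Their spans over the 12 arrays were small, from 0.30 log2 units in Mrps15 and 0.32 in Sh3glb2 to 1.05 in Ifit3b. With slide means removed the r of these 10 genes lay between 0.75 and 0.92. Of 9 with a promoter window, 3 held the core (Ifit3b, Rbck1 and Oas1c).

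The wider set of interferon targets followed the members in most but not all genes. Of 49 other interferon-stimulated genes listed, 45 had a probe and 41 were well above background on all arrays. In 36 of these 41 r with the members was positive and in 27 it was above 0.5, with a median of 0.653 against -0.034 over all genes. With slide means removed the median was 0.356. No gene of the list was called in limma in any comparison, and at an unadjusted p under 0.05 the counts among the 41 were 0 in RS and in DJ against Ctrl (6% and 5.25% of all probes passed), 0 higher and 2 lower in DJ526 against Ctrl (10.8%), 1 higher and 3 lower against DJ (9.84%) and 1 higher and 1 lower against RS (5.51%). The 4 brightest were Ifi27 (r = 0.56), Bst2, which encodes tetherin (0.70), Ly6e (0.53) and Gm4951 (0.40). Chosen after their values were seen, Dhx58 (0.90), Parp12 (0.90), Xaf1 (0.90), Oas1a (0.88) and Oasl2 (0.88) were among the closest, whereas Ifit1bl2 (-0.56), Slfn5 (-0.40) and Trim25 (-0.36) ran the other way. The mean of the 41 genes had r = 0.913 with the members. It stood at 0.23 in RS 1 and 0.24 in DJ 3 and at -0.22 in DJ526 2 and -0.20 in RS 3, in log2 units from its mean. Of 32 genes of this list with a promoter window, 16 held the core.

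Genes that respond mainly to interferon gamma followed less closely. All 24 with a probe, among them guanylate-binding proteins and the immunity-related GTPases, were well above background, with a median r of 0.370, and with slide means removed it was -0.022. The brightest were Serping1 (r = 0.31), Igtp (0.41), Iigp1 (0.33) and Irf1 (0.02). Psmb9, an immunoproteasome subunit (0.80), and Gbp3 (0.78) were the closest, chosen after their values were seen.

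Of the ligands, 16 had a probe. Ifnb1, Ifna4 and Ifne were not above background on any array, and 12 were above it on all 12, dim as they were. The brightest of these were Ifnl3 (r = 0.44), Ifnk (-0.30), Ifnab (-0.46) and Ifna14 (-0.73), and the median r was -0.233. The interferon alpha genes are near copies of each other, so that their probes may not tell them apart. Of the 12 receptor and signalling genes the brightest were Ifnar2 (0.39), Jak1 (0.38), Stat2 (-0.29) and Irf9 (0.77), with a median of 0.307. Chosen after their values were seen, the probe of the interferon gamma receptor chain Ifngr2 gave 0.80 and that of Tyk2 0.73, while that of Jak2 gave -0.39. The 17 sensors and adaptors had a median of 0.432, and the brightest were Irf3 (0.09), Mavs (0.06), Tlr9 (0.56) and Trex1 (0.42). The RNA sensors Ddx58 (0.84) and Ifih1 (0.68), themselves interferon-induced and chosen after their values were seen, were higher. The 9 genes listed as negative regulators had a median of -0.303. The brightest were Stat3 (-0.43), Trim27 (-0.26), Pias1 (-0.30) and the exonuclease Isg20 (0.08). Isg20 counts here by the list alone, as the list of other targets also holds it. Socs1 gave -0.36 and Socs3 -0.53, both chosen after their values were seen. None of the genes of these lists was called in limma.

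**Figure D5:**
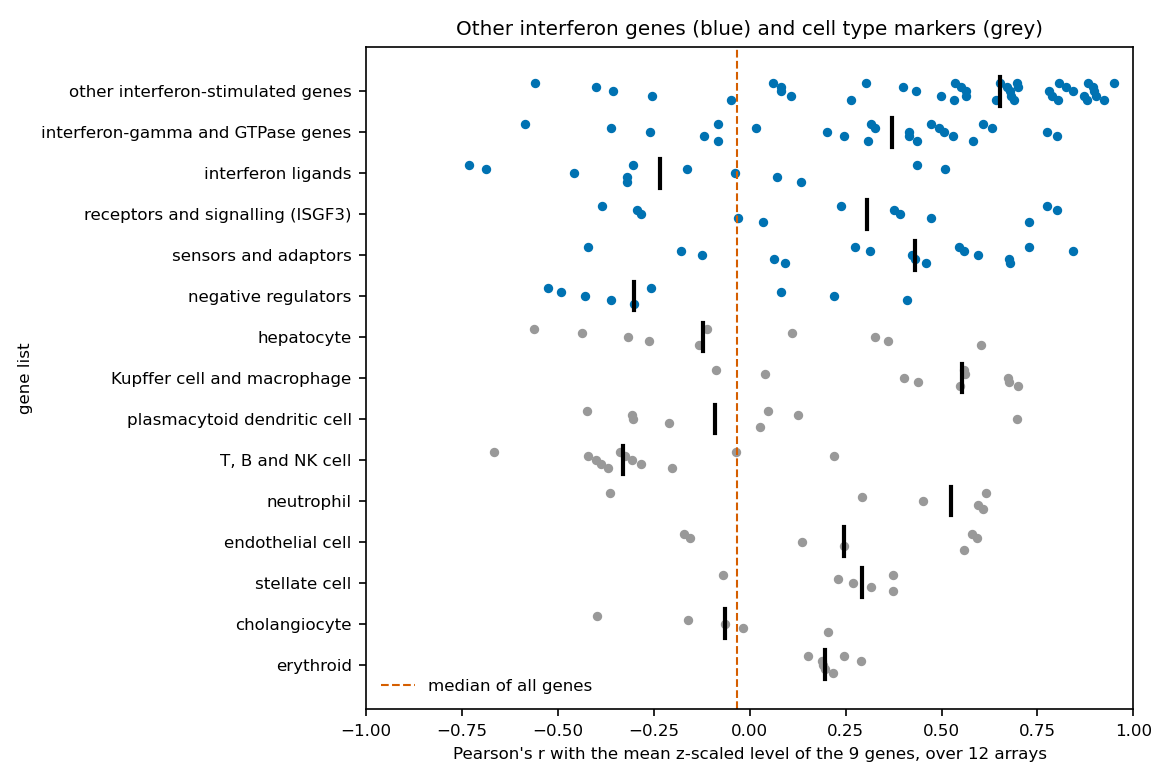
Pearson's r over 12 arrays (horizontal axis) between single genes and the mean of the 9 members, for 6 lists of other interferon genes (blue) and 9 lists of cell type markers (grey), listed on the vertical axis. Each point is 1 gene well above background on all arrays, black bars are list medians, and the dashed line is the median of all genes (-0.034). The other interferon-stimulated genes have the highest median as measured (0.653), but not with slide means removed, which is not drawn.

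Markers of some liver cells moved with the members. Kupffer cell and macrophage markers (10 of 11 listed had a probe and were well above background) had a median r of 0.553 with the members, and 0.719 with slide means removed. The latter was above that of the other interferon-stimulated genes (0.356), and so were those of neutrophil (0.712) and endothelial markers (0.379). Marco (-0.09) and Timd4 (0.04), chosen after their values were seen, did not follow the members as measured. With slide means removed they gave 0.45 and 0.67. The mean deviation of the 10 markers, in log2 units, lay between -0.08 and 0.72 in Ctrl, between -0.28 and 0.19 in RS, between -0.35 and 0.19 in DJ and between -0.35 and 0.20 in DJ526. Neutrophil markers (6 of 8 well above background on all arrays) had a median r of 0.524, and 0.712 with slide means removed. They stood at 1.73 in Ctrl 3 and at 0.71 in DJ 3, with the other arrays between -0.70 and 0.31. Endothelial markers had a median of 0.246, stellate cell markers 0.291, erythroid markers 0.195, cholangiocyte markers -0.065, plasmacytoid dendritic cell markers -0.091, hepatocyte markers -0.122 and T, B and NK cell markers -0.331. The mean of a list had r with the members of 0.567 for endothelial, 0.550 for neutrophil, 0.510 for stellate cell and 0.458 for Kupffer cell markers. It was 0.220 for erythroid markers and negative for the other marker lists. The share of spots well above background had r = -0.503 with the members over the 12 arrays, and the 75th percentile of the arrays had r = 0.041. The first principal component of the 15568 other genes well above background on all 12 arrays, with 22.8% of their variance, had an absolute r of 0.759 with the members. The part of these measures in the covariation was not tested.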

How the data were processed

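Liver RNA of 12 mice was hybridised to 12 one-colour arrays. The deposited scanner output holds spot intensity on a linear scale, background-subtracted by Feature Extraction 11.5.1.1 per the file headers. A table that the authors deposited is, for 99.9% of the probes on each array (tolerance 0.0001), that intensity times 1 factor per array (0.959 to 1.08). The extraction reagent differs between labels (Trizol) and methods (RNeasy). The members and lists were chosen with earlier results of these data known.

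Spots of a probe were averaged without outlier flags, put on the log2 scale and centred on the 75th percentile of the array; the authors deposited no log2 values. Of the probes, 68 lacked a value on some array. limma 3.58.1 (R 4.3.3) was fitted with 4 group means and a variance trend, with Benjamini-Hochberg adjustment at 0.05. Correlations used 100000 permutations (Python 3.11.15, numpy 2.4.6, scipy 1.17.1). Both were tested on simulated data. A gene with 2 probes was read by the brighter. The genes named were all members, the 10 most alike and the 4 brightest of each list of interferon genes; others are said to be chosen after their values were seen.

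Alternatives were normexp (median spot and background signals, offset 50, without 742 to 1129 background-flagged spots per array, a choice taken over from earlier work on these data and not tested here), quantile scaling, the deposited table, detected probes only, no trend, slide and replicate number as blocks, the compared groups alone, the methods' t-test, RS and DJ exchanged (a supplementary table orders them otherwise than the labels), and each array left out. The measures of slide 2 were added after the values were seen. A gene of the signalling list is not reported here. The number of arrays limits the precision.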

Additional observations from a re-analysis of the deposited data

How the results depend on the processing

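No member probe was called in any of the 8 comparisons under the alternatives run for it, with 0 called also when each array was left out; the compared groups alone and the t-test were not run for the contrast of resveratrol effects, nor the former for any difference among the 4 groups, where the fit holds all groups; the lowest adjusted p over all settings was 0.150 (DJ526 against DJ). Of the 36 gene pairs, 22 passed as measured. The count was 6 with group means removed, 0 with slide means removed, 0 without RS 1 and DJ 3, and 0 without the 4 arrays of slide 2 (added after seeing the data), with 20, 6, 10 and 6 at an unadjusted p under 0.05. It was 15 to 25 with 1 array left out, 21 with normexp (which left Oasl1 with values on 8 arrays and Ifit1 and a probe of Isg15 on 11), 24 with quantile scaling, 21 with the deposited table and 20 with the replicate block. The median r was 0.634 to 0.754 with 1 array left out.

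Differences from Ctrl that turned sign, none of them called, were mostly those with slide as a block. In RS these were Ifit1 (-0.12), Ifit2 (-0.34), Ifit3 (-0.51), Isg15 (-0.26), Oasl1 (-0.93) and Ifi44 (-0.18). In DJ they were Ifit1 (-0.28), Isg15 (-0.022), Usp18 (-0.46) and Ifi44 (-0.14), and in DJ526 Isg15 (-0.42). With normexp Ifit2 in RS (-0.041), Ifit3 in DJ (0.0072), Isg15 in DJ526 (-0.0072) and Oasl1 in DJ (0.15) turned sign, and with quantile scaling Ifit2 in RS (-0.049). The cause was not tested. With 1 array left out, 20 of 324 differences turned sign. The ranges were -0.084 to 0.11 for Ifit2 in RS, -0.10 to 0.28 and -0.22 to 0.25 for Ifit3 in RS and DJ, -0.041 to 0.18 for Isg15 in DJ526, -0.34 to 0.15 for Irf7 in RS, -0.27 to 0.21 and -0.12 to 0.44 for Usp18 in RS and DJ, -0.12 to 0.26 and -0.20 to 0.32 for Oasl1 in RS and DJ, and -0.60 to 0.0020 and -0.27 to 0.24 for Rsad2 in RS and DJ.

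Same-numbered arrays had correlations of -0.340 to 0.387 between their deviations from the group means. Arrays of different groups and different numbers had -0.413 to 0.424. These ranges show no pairing of the mice by number but cannot exclude one. The replicate block changed no call.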
